A study of Caenorhabditis elegans with 3 samples.

Results

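The genes described are the 10 core genes of X chromosome counting and dosage compensation in Caenorhabditis elegans, taken by sequence name from a table of 20392 genes. They are xol-1 (C18A11.5), sdc-1 (F52E10.1), sdc-2 (C35C5.1), sdc-3 (C25D7.3), dpy-30 (ZK863.6), dpy-27 (R13G10.1), mix-1 (M106.1), dpy-26 (C25G4.5), dpy-28 (Y39A1B.3) and dpy-21 (Y59A8B.1), and all 10 were present in the table. The RNA came from whole worms of the unmanipulated wild-type strain N2 Bristol, grown at 25 °C on OP50 bacteria for 29 h until mid-L4, the last larval stage, without any treatment. There was 1 group of 3 libraries, labelled as independent replicates, so no condition was compared. Nothing in the labels says whether the replicates came from separate cultures, and the spread given here is the spread between these libraries. Values are TPM, a measure of transcript abundance scaled by the length of each transcript and by the total of its library. TPM allows levels of different genes to be set side by side, but it keeps no read depth, so errors are the SD over the 3 libraries.

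In C. elegans, hermaphrodites carry a pair of X chromosomes and males carry a single one. Early in the embryo, proteins encoded on X and on autosomes act against each other at xol-1, a gene that is repressed in hermaphrodites and active in males. Where xol-1 is off, SDC-2 is made, and together with SDC-1, SDC-3 and DPY-30 it brings a specialised condensin to both X chromosomes, which lowers their transcription. The same SDC proteins repress her-1, the gene that starts male development. Dosage compensation acts in somatic cells and not in the germ line, whereas several condensin subunits also work in mitosis and meiosis, and whole worms contain both tissues. In such bulk samples, fewer cells of a type and less RNA per cell cannot be told apart.

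Marker genes of tissues, of stages and of male neurons were looked at as a description of the worms. Body wall muscle, intestine, neuron, hypodermis, germ line and oocyte markers were detected without exception, at 1 TPM or more in all 3 libraries. So were 3 of 4 sperm markers and 2 of 3 adult yolk markers, beside 61.1% of all genes. The 4 embryonic markers were not detected (end-3 was highest, at 0.110 ± 0.0676 TPM, SD, n = 3), nor were the 3 markers of male-specific neurons, which summed to 0.0589, 0.252 and 0.115 TPM in replicates 1, 2 and 3. Among the male markers, cwp-1 was listed at 0 in 2 libraries, and pkd-2 and lov-1 averaged 0.0716 and 0.00535 TPM. No library of males of this stage was measured, so these low values cannot show whether males were present. Among the lists with detected genes, the sums of sperm and hypodermal markers differed most between libraries, with the highest in replicate 1 and the lowest in replicate 3. The 4 sperm markers summed to 734, 301 and 184 TPM, and the 3 hypodermal markers to 217, 139 and 60.7 TPM in replicates 1, 2 and 3, while germ line markers summed to 138, 140 and 149 TPM.

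Of the 10 genes, 9 were detected at 1 TPM or more in every library, against 61.1% of all genes, and only xol-1 was not. Their levels fell into 4 tiers, which did not follow role alone. The adaptor gene dpy-30 lay above 100 TPM, the condensin subunit genes lay between 7.74 and 14.8 TPM in single libraries, the SDC genes and dpy-21 between 1.97 and 3.999 TPM, and xol-1 under 1 TPM. The median log2(TPM + 1) was 2.78 for the 10 genes and 2.16 for all 20392 genes. That difference was 0.54, 0.66 and 0.77 in replicates 1, 2 and 3. It is a description of these genes and was not tested, and it was 0.061 when genes averaging under 1 TPM were left out on both sides.

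**Figure D1:**
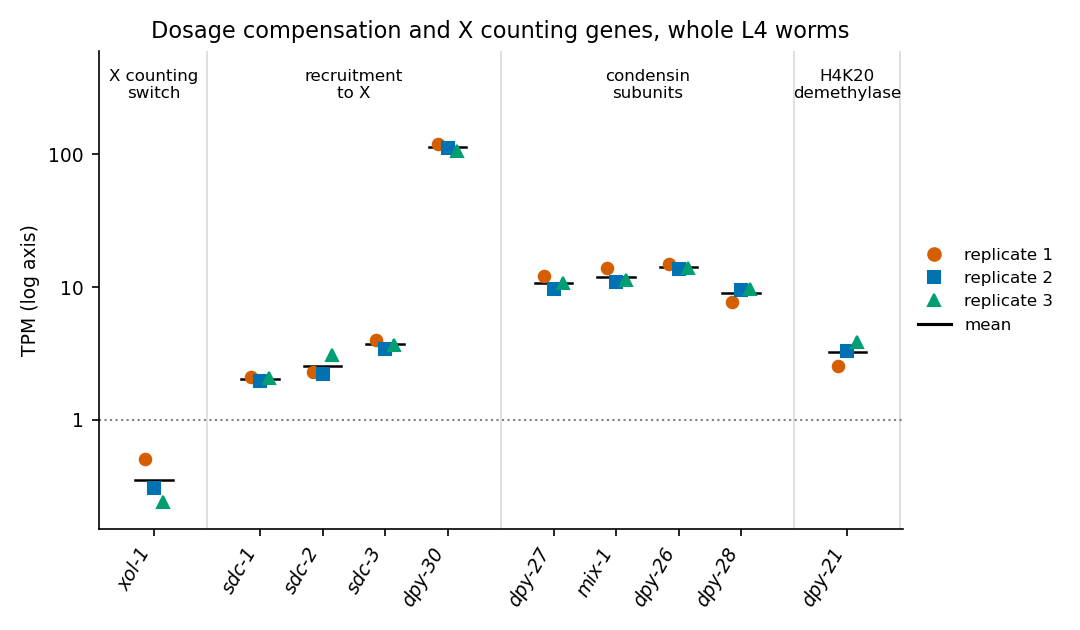
TPM (log axis) of the 10 genes in the 3 libraries, grouped by role, with horizontal bars for the mean and a dotted line at the detection limit of 1 TPM. The dpy-30 values lie near 112 TPM, the 4 condensin subunit genes near 10 TPM, the SDC genes and dpy-21 between 1.97 and 3.999 TPM, and all 3 xol-1 values under 1 TPM.

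The switch gene xol-1 had the lowest RNA level of the set. XOL-1 is the master switch that directs male development in the embryo, and its gene lies on X (positions 8041313 to 8044409, plus strand, WBcel235 annotation) with 3 annotated transcripts of 1281 to 1980 nt. It had 0.509, 0.309 and 0.242 TPM in replicates 1, 2 and 3, a mean of 0.354 ± 0.139 TPM (SD, n = 3). Its highest library was thus 2.10 times its lowest, and replicate 1 was the high one. It ranked above 24.7% of all genes in the table and above 22.4% of the 2665 protein-coding genes on X. The depth behind values this low is unknown, so no counting error can be set beside the difference between libraries.

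The 3 SDC genes had mean RNA levels between 2.04 TPM (sdc-1) and 3.71 TPM (sdc-3), above 42.3% and 50.8% of all genes. SDC-2 is the protein made only in hermaphrodites that selects X for dosage compensation. Its gene (X, 11522707 to 11533450, plus strand) has a single annotated transcript of 9247 nt, the longest of the set, for a protein of 2962 residues. It had 2.30, 2.22 and 3.09 TPM in replicates 1, 2 and 3 (2.54 ± 0.480, SD, n = 3), with replicate 3 apart from the other two. The zinc finger gene sdc-1 (X, 16275763 to 16282534, plus strand) had 2.09, 1.97 and 2.06 TPM, and its coefficient of variation of 3.18% was the smallest of the 10 genes. The gene sdc-3 (V, 15039148 to 15048207, minus strand), whose zinc finger protein acts in both sex determination and dosage compensation, had 3.999, 3.44 and 3.68 TPM in the same order. On the log2(TPM + 1) scale, sdc-2 exceeded sdc-1 by 0.21 ± 0.18 (SD, n = 3), by 0.09, 0.12 and 0.42 in the 3 libraries. With 3 libraries an exact sign-flip permutation test cannot go below p = 0.25 (two-sided), the value it gave here, so such differences are given with their spread and none can pass 0.05. The lowest sdc-2 library (2.22 TPM) was still above the highest sdc-1 library (2.09 TPM).

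The fourth recruitment gene, dpy-30, stood far above the SDC genes. DPY-30 is a small adaptor protein that also belongs to the COMPASS complexes, which methylate lysine 4 of histone H3. Its gene (V, 12191519 to 12192385, plus strand) has 2 annotated transcripts of 565 and 580 nt and encodes 123 residues, the shortest protein of the set. It had 119.5, 111 and 107 TPM in replicates 1, 2 and 3 (112 ± 6.62, SD, n = 3), above 96.1% of all genes. Within a library it was 7.93 ± 0.281 times the next gene of the set, dpy-26. Its annotated end overlaps the start of rnp-1 by 113 nt on the same strand, and rnp-1 averaged 11.8 ± 0.531 TPM. The 6 listed COMPASS partner genes were detected without exception, beside 61.1% of all genes, but lay at a lower level. They ranged from 6.99 ± 0.369 TPM for the methyltransferase gene set-16 to 9.77 ± 1.34 TPM for the CXXC protein gene cfp-1. The other methyltransferase gene, set-2, averaged 7.54 ± 0.407 TPM. In each library dpy-30 was about 13 times the median partner (13.4 ± 0.448, SD, n = 3).

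The dosage compensation condensin (condensin IDC) had subunit RNA means between 8.96 and 14.2 TPM. It differs from the mitotic condensin I by a single subunit, with DPY-27 in the place of SMC-4, and shares the other 4. The ATPase gene dpy-27 (III, 3813018 to 3819679, minus strand) had 12.1, 9.58 and 10.7 TPM in replicates 1, 2 and 3 (10.8 ± 1.247, SD, n = 3). Its ATPase partner mix-1 (II, 10824246 to 10841424, plus strand), the C. elegans SMC2, had 13.9, 10.8 and 11.2 TPM (12.0 ± 1.65). Both were highest in replicate 1 and lowest in replicate 2. The kleisin gene dpy-26 (IV, 12445801 to 12451335, minus strand), which closes the ring, had 14.8, 13.7 and 14.003 TPM (14.2 ± 0.560), the steadiest of the 4. The HEAT repeat gene dpy-28 (III, 10763131 to 10777076, plus strand) had 7.74, 9.502 and 9.64 TPM (8.96 ± 1.06), and here replicate 1 was the low library. With the remaining subunit capg-1 at 10.11 ± 0.338 TPM, the 5 means spanned 1.58-fold. This span is not particular to condensin IDC. The smc-4 mean of 13.1 ± 2.01 TPM lay between those of dpy-28 and dpy-26, so condensin I had the same span.

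The 4 pairs of condensin genes compared differed by less than 1 log2 unit, with the same sign in all 3 libraries. Not every pair of subunits did so, since dpy-27 lay above capg-1 in replicates 1 and 3 and below it in replicate 2 (9.58 against 9.98 TPM). The log2(TPM + 1) of dpy-27 minus that of smc-4, the gene it replaces, was -0.33, -0.29 and -0.14 in replicates 1, 2 and 3, since smc-4 averaged 13.1 ± 2.01 TPM. The gene mix-1 exceeded dpy-27 by 0.19, 0.16 and 0.07. The kleisin gene dpy-26 exceeded capg-1 by 0.46, 0.42 and 0.47, the least variable of these differences (0.45 ± 0.02, SD, n = 3), and dpy-28 lay below dpy-26 by -0.85, -0.48 and -0.50. Each of the 6 pairs compared, which include sdc-2 against sdc-1 and xol-1 against sdc-2 (-1.38 ± 0.30), had an exact sign-flip p of 0.25, also after Benjamini-Hochberg adjustment over the 6.

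MIX-1 pairs with DPY-27 in condensin IDC and with SMC-4 in condensins I and II. The summed level of both partner genes, dpy-27 plus smc-4, was 27.5, 21.5 and 22.6 TPM in replicates 1, 2 and 3. This sum was 1.98, 1.98 and 2.01 times the mix-1 level of the same library (1.99 ± 0.0156, SD, n = 3), a ratio that varied less than the TPM of any of these genes. The ratio was computed after the values had been seen. Each of these genes was highest in replicate 1, and a shift that genes share within a library cancels in such a ratio. Its smaller spread therefore says nothing about the pairing of the proteins. For the other shared positions, the kleisin genes dpy-26 and kle-2 summed to 23.9 ± 1.61 TPM, the CAP-G genes capg-1 and capg-2 to 17.98 ± 1.62 TPM, and the CAP-D genes dpy-28 and hcp-6 to 15.1 ± 0.110 TPM. In that last pair, hcp-6 had 7.22, 5.66 and 5.51 TPM and dpy-28 had its lowest value in replicate 1, so the sum was nearly level at 14.96, 15.2 and 15.1 TPM.

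**Figure D2:**
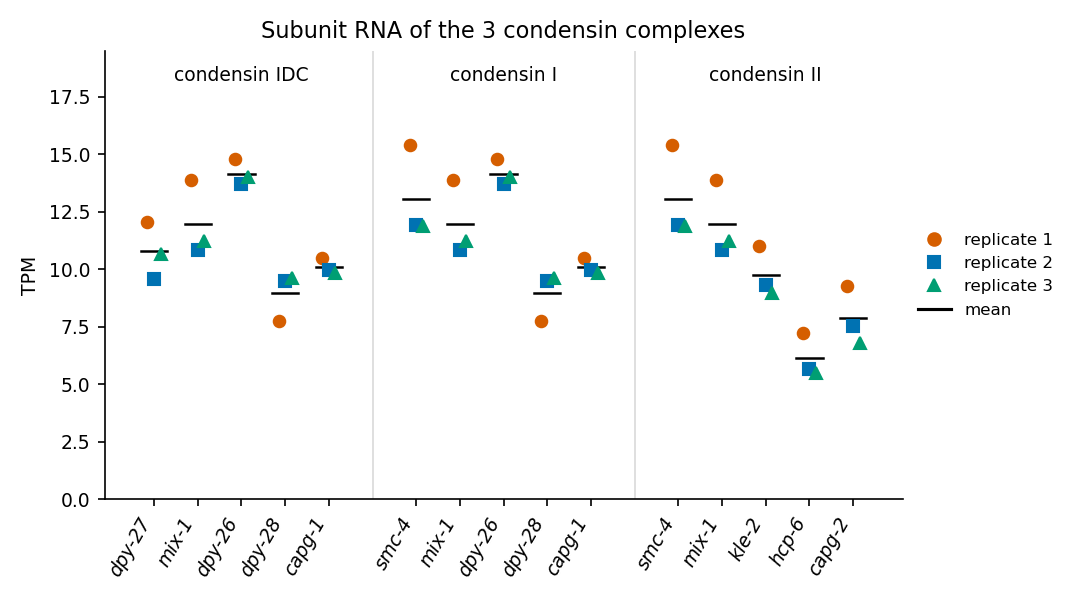
TPM (linear axis from 0) of the subunit genes of the 3 condensin complexes in the 3 libraries, with bars for the mean; shared subunits are drawn under each complex. The condensin IDC means lie between 8.96 and 14.2 TPM, and hcp-6 of condensin II is lowest at 6.13 TPM.

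DPY-21 is the demethylase that turns dimethylated lysine 20 of histone H4 into the monomethylated form on X. Its gene (V, 17936282 to 17949193, minus strand) had 2.57, 3.28 and 3.87 TPM in replicates 1, 2 and 3, a mean of 3.24 ± 0.653 TPM (SD, n = 3). Replicate 3 was 1.51 times replicate 1, and dpy-21 was the only 1 of the 9 genes averaging 1 TPM or more to differ by 1.5-fold or more between libraries. Among all genes at that level the share was 33.5%. The gene sat at the limit, since its ratio was 1.497 after the libraries were rescaled by the median of ratios. The gene nearest below was sdc-2 with a ratio of 1.39. The methyltransferase genes that act before it stood higher, set-1 for monomethylation at 15.4 ± 0.832 TPM and set-4 for higher methylation at 9.94 ± 0.262 TPM, each apart from dpy-21 in every library.

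Ordered by mean TPM, the genes ran dpy-30, dpy-26, mix-1, dpy-27, dpy-28, sdc-3, dpy-21, sdc-2, sdc-1 and xol-1. Of the 9 neighbouring pairs in this order, 4 were apart, meaning that the lowest library of the higher gene exceeded the highest library of the lower gene. These were dpy-30 over dpy-26, dpy-28 (7.74 TPM or more) over sdc-3 (3.999 TPM or less), sdc-2 over sdc-1, and sdc-1 (1.97 TPM or more) over xol-1 (0.509 TPM or less). Overlap remained between dpy-26 and mix-1, mix-1 and dpy-27, dpy-27 and dpy-28, sdc-3 and dpy-21, and dpy-21 and sdc-2. Only sdc-3 and dpy-21 changed places between libraries, with sdc-3 higher in replicates 1 and 2 and dpy-21 higher in replicate 3. Without replicate 1, and likewise without replicate 3, 7 of the 9 neighbours were apart.

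TPM counts molecules, and the 10 transcripts differ in length by more than 10-fold. Multiplying the mean TPM by the longest annotated transcript in kilobases, a step added after the values had been seen, gives a measure of RNA by length rather than by molecule. On this scale dpy-30 had 65.2 ± 3.84 TPM kb, dpy-26 60.01 ± 2.37, dpy-27 57.2 ± 6.61, mix-1 48.9 ± 6.74 and dpy-28 41.8 ± 4.93 (SD, n = 3). Here dpy-30 differed from dpy-26 and from dpy-27 by less than the sum of the SDs, and from mix-1 and dpy-28 by more. Those SDs ignore that the genes are paired within a library. The comparison therefore cannot show whether dpy-30 kept its place in each library. The long genes sdc-3 and sdc-2 reached 25.1 ± 1.90 and 23.4 ± 4.43 TPM kb, dpy-21 18.4 ± 3.70, sdc-1 7.87 ± 0.2505 and xol-1 0.7001 ± 0.275. The transcript lengths behind the authors' TPM are not given in the sources used here, and these products rest on the WBcel235 lengths.

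The 3 genes of the set that lie on X were also its 3 lowest. Their median log2(TPM + 1) was 1.604, against 3.56 for the 7 autosomal genes. The difference was -1.95 over the mean levels and -2.08, -1.83 and -1.93 in replicates 1, 2 and 3. Over all protein-coding genes the medians were 1.82 for 2665 genes on X and 2.33 for 16955 on autosomes. Within their own chromosome class, sdc-2 ranked above 49.9% of X genes and sdc-1 above 45.7%. On the autosomal side, dpy-21 and sdc-3 ranked above 46.7% and 48.5% of genes, the condensin genes above 65.8% to 75.7%, and dpy-30 above 96.0%. These are descriptions of 10 chosen genes, which are not replicates of a chromosome, and carry no test.

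**Figure D3:**
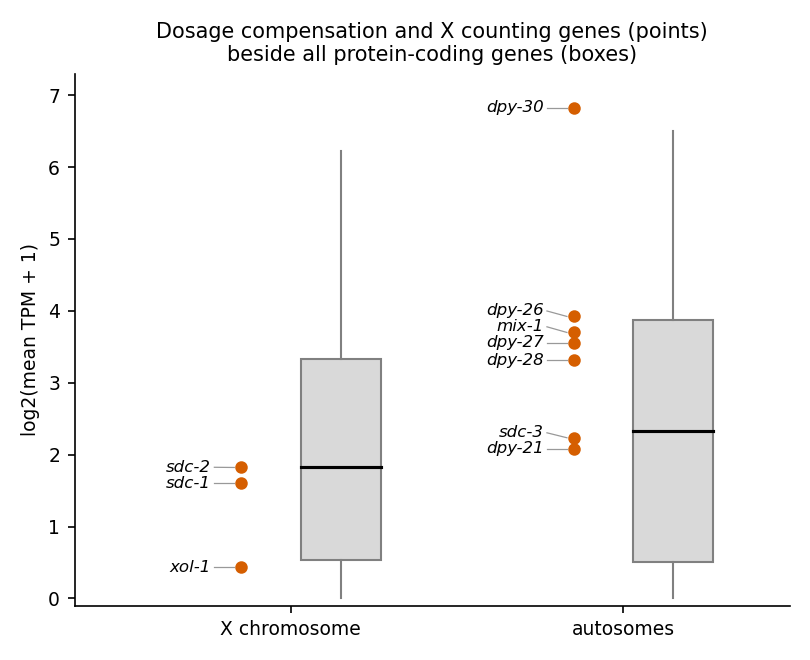
log2(mean TPM + 1) of the 10 genes (points) beside all protein-coding genes of X and of the autosomes (boxes from the 25th to the 75th percentile with the median, whiskers from the 5th to the 95th). The SDC genes on X and sdc-3 and dpy-21 on autosomes lie near the median of their class, xol-1 below the lower edge of its box and dpy-30 above its whisker.

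Between libraries the set split by direction. Replicate 1 was the highest library for 7 of the 10 genes and replicate 3 for sdc-2, dpy-28 and dpy-21, and replicate 2 was highest for none of them. The median coefficient of variation of the 9 genes averaging 1 TPM or more was 11.6%, beside 13.2% for all genes at that level. Among the 12 condensin and SMC genes measured, which include the cohesin gene smc-3 and the repair genes smc-5 and smc-6 (9.58 ± 0.672, 12.5 ± 1.28 and 13.5 ± 1.41 TPM, SD, n = 3), 11 were highest in replicate 1, dpy-28 being the exception. Of all genes averaging 1 TPM or more, 40.9% were highest in replicate 1. This way of counting was chosen with the values in view. The step was modest, since replicate 1 was between 0.809 times (dpy-28) and 1.30 times (capg-2) the mean of the other libraries. All 4 sperm, all 3 hypodermal and all 3 adult yolk markers were highest in replicate 1 as well, though vit-5 of the yolk markers was near 0. The oocyte, intestine, body wall muscle and neuron markers were each divided in their highest library, as were the germ line markers. Among the germ line markers, rec-8 had 66.2, 57.7 and 62.3 TPM and mex-5 had 4.98, 4.54 and 4.19 TPM, both highest in replicate 1. In contrast, glh-1 had 36.3, 42.1 and 45.2 TPM and pgl-1 had 30.6, 35.2 and 37.6 TPM. The part of these cell types, and of stage, in the result was not tested.

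**Figure D4:**
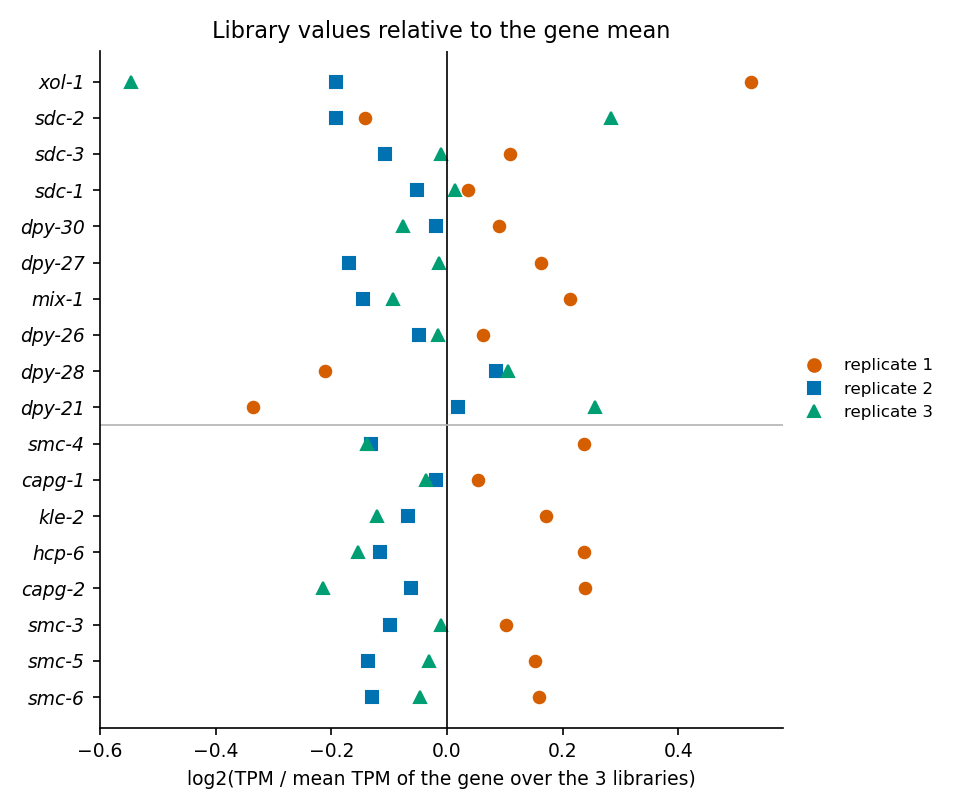
log2 ratio of each library's TPM to the gene's mean over the 3 libraries, for the 10 genes (above the line) and the other condensin and SMC genes (below it). Replicate 1 is the highest of the 3 points for every gene below the line, while dpy-28 and dpy-21 have it lowest.

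Upstream of xol-1, the listed signal elements ranged from 0 to 4.72 TPM in their means. These are the X-encoded repressors of xol-1, the nuclear receptor gene sex-1, the RNA-binding protein gene fox-1 and the homeobox gene ceh-39, and the autosomal activators sea-1 and sea-2. The 3 X-linked genes averaged 1.19 ± 0.0886, 2.50 ± 0.135 and 0.843 ± 0.0667 TPM (SD, n = 3), all above xol-1 in every library. The T-box gene sea-1 was listed at 0 in every library. Of the pair, the zinc finger gene sea-2 had 3.53, 4.77 and 5.85 TPM in replicates 1, 2 and 3, a 1.66-fold difference between libraries, and its mean exceeded those of the SDC genes and dpy-21. Of these 5 genes, 3 were detected, beside 61.1% of all genes.

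Downstream, 7 of 8 listed sex determination genes were detected, against 61.1% of all genes, and the exception was her-1. This gene (V, 9697015 to 9702035, plus strand) encodes the secreted ligand that signals male fate and is the known direct target of SDC repression. It was listed at 0.0845 TPM in replicate 1, against 16.1 TPM in replicate 2 and 21.8 TPM in replicate 3. Replicates 2 and 3 thus lay between the levels of tra-1 and fem-1, while replicate 1 was near 0. In the same libraries sdc-2 had 2.30, 2.22 and 3.09 TPM and sdc-1 had 2.09, 1.97 and 2.06 TPM. The values of sdc-3 were 3.999, 3.44 and 3.68 TPM, and those of xol-1 were 0.509, 0.309 and 0.242 TPM. Only 9 of 20392 genes (0.0441%) were under 0.1 TPM in replicate 1 and at 10 TPM or more in both other libraries, a description chosen after the value of her-1 had been seen. No annotated gene overlaps her-1, whose transcripts measure 756 and 1125 nt. Of the other 8 genes, 6 had an annotated transcript, of 102 to 341 nt. The cause of the her-1 difference was not tested. Assignment of reads and biology cannot be told apart here without the reads.

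The rest of the pathway was steadier. HER-1 acts on the receptor TRA-2, whose gene averaged 7.83 ± 0.432 TPM (SD, n = 3). The FEM genes that act below it stood at 25.9 ± 1.26 TPM for fem-1, 10.6 ± 0.611 for fem-2 and 2.72 ± 0.180 for fem-3. The terminal regulator tra-1 averaged 11.2 ± 0.579 TPM, and the protease gene tra-3 averaged 7.89 ± 1.14 TPM. The male regulator mab-3, which TRA-1 represses, had 3.01, 1.84 and 1.69 TPM in replicates 1, 2 and 3, with replicate 1 the high library, the opposite of her-1.

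**Figure D5:**
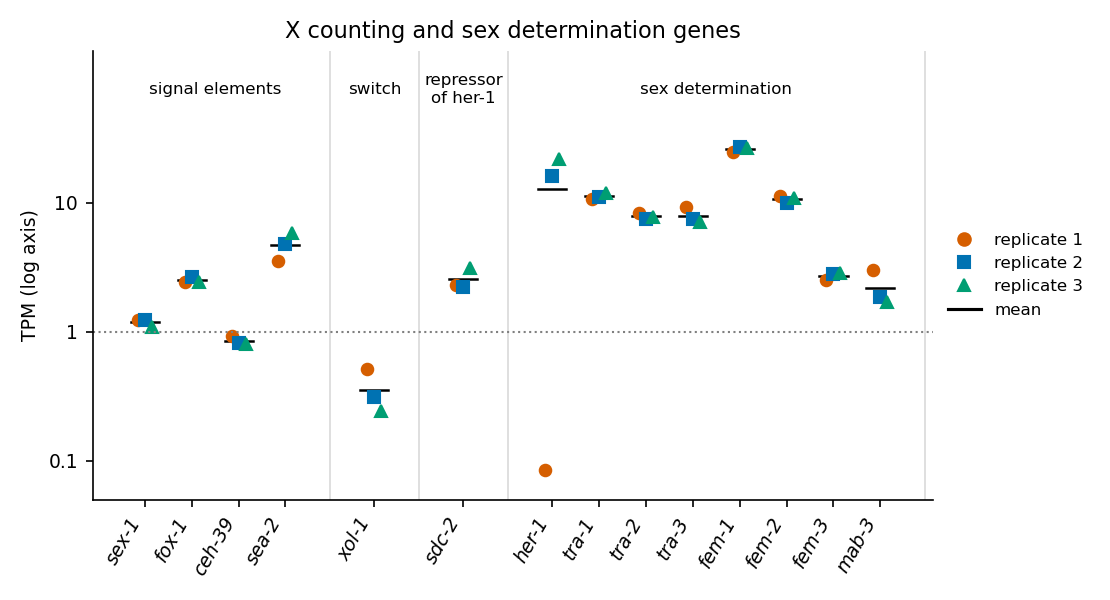
TPM (log axis) of the signal elements, xol-1, sdc-2 and the sex determination genes in the 3 libraries, with bars for the mean and a dotted line at 1 TPM; sea-1, listed at 0, is not drawn. Replicate 1 of her-1 lies at 0.0845 TPM and the other replicates at 16.1 and 21.8 TPM, while no other gene shown differs by that factor.

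The closest match to each gene was sought among the other members and the listed pathway genes (45 candidates), by the root mean square difference of log2(TPM + 1) over the 3 libraries. The smallest difference was 0.07, between dpy-27 and fem-2. The partner found for mix-1 was smc-5 (0.08), for dpy-26 smc-6 (0.10), for dpy-28 ash-2 (0.12) and for sdc-2 fem-3 (0.16). That of sdc-1 was fox-1 (0.22), of dpy-21 again fem-3 (0.22), and of sdc-3 set-25 (0.24). No close match was found for dpy-30, whose nearest gene was smo-1 at 0.60, or for xol-1, whose nearest was sea-1 at 0.45. Since sea-1 was listed at 0 in every library, that last value reflects only the level of xol-1 itself.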

How the data were processed

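The reads were quantified with kallisto, per the submitters' processing notes, and the deposited table holds TPM per gene that the authors computed for each library, with their mean over the libraries. Its version, index and annotation, and how transcripts were summed to genes, are not given in the sources used here. Per the labels' protocols, ribosomal RNA was depleted and a stranded total RNA kit was used. TPM keeps no depth, so no count test or counting interval was made. Sequence names were matched to Ensembl release 115 (WBcel235): 20133 of 20392 names (98.7%) had 1 gene. Values of mix-1, dpy-26, dpy-30, sdc-2 and dpy-21, which overlap other annotated genes, are less certain. None of the 10 genes had a copy with identical values. The symbol smc-1 matched no gene name in the annotation. That gene was therefore left out of the condensin and SMC count, which does not mean that it is absent.

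Levels were compared on log2(TPM + 1) in Python 3.11.15 (numpy 2.4.6, pandas 2.3.3) with exact sign-flip permutation tests, after the functions were tested on simulated data. The rule for named genes was every member, any gene of the pathway lists (at least the highest and lowest of each), and the nearest listed gene. Members and lists were chosen with earlier results of these data known.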

Additional observations from a re-analysis of the deposited data

How the results depend on the processing

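With a detection limit of 5 TPM, 5 of the 10 genes were detected instead of 9. The shares of all genes at this limit and at the other fold limits below were not computed. These counts therefore have no background to be read against. The count of genes differing 1.5-fold between libraries, 1 as deposited, was 0 after median-of-ratios rescaling, 4 at the lower fold tried and 0 at 2-fold, and ranged from 0 to 1 when each replicate was left out (0 without replicate 1 or 3, since dpy-21 rests on that pair). Neighbours in the order that were apart numbered 4, were 5 after median-of-ratios rescaling, where dpy-27 and dpy-28 no longer overlapped, and between 6 and 7 when a replicate was left out, because fewer libraries overlap less by construction. The median of the 10 genes exceeded that of all genes by 0.38 with a pseudocount of 5, and by 0.061 with genes of at least 1 TPM. For X-linked minus autosomal members the difference was -2.35 with a pseudocount of 0.1 and -1.16 with one of 5. None of the 6 paired differences between genes changed sign, but without replicate 1 the neighbours sdc-3 and dpy-21 changed places, at 3.56 and 3.58 TPM. Leaving out the 100 most abundant genes raised every mean of the 10 genes 2.25-fold to 2.26-fold, and rescaling changed them to between 0.995 and 0.997 times the main value. The mean of her-1 was 12.6 TPM, and was 18.9, 10.9 and 8.07 TPM without replicates 1, 2 and 3. Depth is unknown, which limits xol-1 most. No paired comparison of conditions was possible because there is 1 group.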

Other observations

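Genes that modify or anchor the chromatin of X were also measured. SUMO, which is attached to subunits of the dosage compensation complex, is encoded by smo-1, with 194.5, 162 and 156 TPM in replicates 1, 2 and 3. It was the only listed pathway gene above dpy-30 in every library. The conjugating enzyme gene ubc-9 averaged 48.6 ± 1.70 TPM (SD, n = 3) and the ligase gene gei-17 averaged 19.2 ± 0.382 TPM. The nuclear anchor gene cec-4, whose protein binds methylated lysine 9 of histone H3, stood at 10.6 ± 0.516 TPM. Among the H3K9 methyltransferase genes, met-2 averaged 12.5 ± 0.573 TPM, set-32 averaged 5.59 ± 0.212 TPM and set-25 averaged 4.55 ± 0.321 TPM. All 7 genes were detected, against 61.1% of all genes. None differed by 1.5-fold between libraries, against 33.5% of all genes averaging 1 TPM or more.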
